A study of Mus musculus with 6 samples.

Results

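The genes described here encode linker histones, replacement variants of the core histones, and the protein that binds the end of histone mRNAs. They are H1f2, H1f0, H2az1, H2az2, H2ax, H3f3a, H3f3b and Slbp. The list was taken by gene symbol and was selected on measured values of the same comparison, chiefly the TPPU to control difference of H1f2, so those values are given as a description. All 8 were listed among the 18019 gene symbols of the deposited table, and all 8 were among the 9728 genes that passed the filter on low values, at least 1 FPKM in at least 3 libraries. FPKM is the number of fragments scaled to transcript length in kilobases and to the total fragments of the library, so levels of different genes can be set side by side.

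The cells were RAW264.7, an established mouse macrophage line, and every library came from cells stimulated with lipopolysaccharide (LPS), a bacterial cell wall product. The TPPU group (n = 3) also received TPPU, an inhibitor of soluble epoxide hydrolase, and the untreated control group (n = 3) did not. Neither the dose nor the time of treatment is given in the sources used here. The series title places the comparison in a study of inflammatory M1 macrophages in osteoarthritis of the jaw joint.

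Histones package DNA. A pair each of H2A, H2B, H3 and H4 forms the core of the nucleosome, and the linker histone H1 binds where DNA enters and leaves it. Most histone genes are used in S phase, and their mRNAs end in a conserved stem-loop in place of a poly(A) tail. The stem-loop binding protein SLBP holds that stem-loop during processing and translation. Replacement variants such as H2A.Z, H3.3 and H1.0 are made throughout the cell cycle from polyadenylated mRNAs. The libraries were made from RNA captured by its poly(A) tail, so a transcript without a tail is poorly sampled by design.

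Library depth, estimated from the steps of low FPKM values, was 18.4 to 23 M fragments with TPPU and 17.8 to 22.7 M in control, where M stands for mega. Control replicate 3 stood apart, with correlations to the other libraries of 0.958 to 0.977 over the tested genes. Mitochondrial transcripts made up 0.914% to 1.85% of FPKM in the TPPU libraries and 0.371% to 1.73% in the control libraries, with the lowest value in control replicate 3. Pafah1b1, which encodes LIS1, was checked because the labels of the TPPU libraries also cite a column of another table named for an sh-LIS1 construct. It averaged 12.8 ± 1.87 FPKM with TPPU and 10.8 ± 3.92 in control (SD, n = 3 each). Ephx2, which encodes soluble epoxide hydrolase, was at 0.42, 2.56 and 1.54 FPKM in TPPU libraries and at 0.865, 0.447 and 0.632 in control libraries. Of 10 macrophage markers, 9 passed the filter, with summed levels of 2057 to 2174 FPKM with TPPU and 1943 to 2320 in control. The marker lists of T cells, B cells, epithelium and endothelium were each summed over the genes listed. Each sum was at most 1.03 FPKM in any TPPU library and 1.22 in any control library. Of the T cell markers only 1 of 4 was listed, Cd4, and of the B cell markers 2 of 3. Of 6 fibroblast markers, Lum alone passed the filter, and the list summed to 3 to 3.79 FPKM with TPPU and 3.54 to 7.96 in control. The part of these differences in the results below was not tested.

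H1f2 had a level with TPPU of 0.472 times that in control, and it was the member that differed most. It encodes the linker histone H1.2, one of the main somatic H1 subtypes. Its level was 11.4, 11.4 and 12.4 FPKM in TPPU replicates 1, 2 and 3, against 21.2, 26 and 27.6 FPKM in control replicates 1, 2 and 3. Every TPPU library was below every control library, and the TPPU libraries lay close together. The means were 11.8 ± 0.58 FPKM with TPPU and 24.9 ± 3.32 FPKM in control (SD, n = 3 each). The log2 fold change was -1.02 (SE 0.12) on the log2(FPKM + 1) scale, which is the scale of every log2 fold change given here. It stayed between -1.12 and -0.94 when any 1 library was left out. In bulk RNA, fewer cells of a kind and less RNA per cell cannot be told apart.

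Over all 9728 genes, limma called 0 genes at an adjusted p under 0.05 in either direction, a background of 0% called, and 0 of the 8 members. Without adjustment, 768 genes had p under 0.05, which is 7.89% of those tested. Of them 408 were higher with TPPU (4.19%), H2az1 being the member among them, and 360 were lower (3.7%), including H1f2, H1f0 and H3f3b. H1f2 had the smallest p of the genes tested (limma adjusted p = 0.116), and its fold change was the sixth from the lowest of all genes. With a trend on transcript GC content removed, limma called 9 genes, 0.0934% of 9637, and H1f2 was one of them. With sample quality weights, limma called 169 genes, 1.74% of those tested, among them H1f2, H2az1 and H3f3b. Control replicate 3 counted least (weight 0.191) and control replicate 1 most (3.84), with 0.826 for control replicate 2. The control side of that fit thus rested mainly on control replicate 1, with weights estimated from the same libraries.

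The annotated H1f2 transcript carries both kinds of mRNA end. In GENCODE M21 it is 1560 bases long in 1 exon, with the stop codon ending at base 680, a histone stem-loop at bases 705 to 720, and another 840 bases after it. RefSeq ends the gene just after the stem-loop, on chromosome 13 at chr13:23738807-23739531 (mm10, plus strand). The stem-loops of H1f2, of H2ax, the other member that has one, and of the replication-dependent H4c9 are shown with 5 flanking bases on each side and the stem-loop in capitals, because they mark the transcripts that can end without a tail.
H1f2, chr13:23739507-23739532, plus strand: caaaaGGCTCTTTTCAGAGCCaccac
H2ax, chr9:44335235-44335260, plus strand: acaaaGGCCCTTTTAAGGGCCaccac
H4c9, chr13:22040961-22040986, minus strand: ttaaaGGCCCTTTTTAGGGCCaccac
The search was for the 16-base consensus of the histone stem-loop, with any base allowed at 5 of its positions. It matched the sense strand in 49 of 17600 annotated transcripts, 1 per gene of the table (0.278%). Its reverse complement matched in 20 (0.114%). Of 38 replication-dependent histone genes with an annotated transcript, 26 held it (68.4%), and of the 8 members 2 did.

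All 8 members also have a poly(A) signal, AATAAA or ATTAAA, somewhere in their longest annotated coding transcript. The last such hexamer is shown in capitals for the members with a stem-loop and for the members with the highest levels, with 10 bases on each side.
H1f2, chr13:23740332-23740357, plus strand: gtatgcttctAATAAAaagcgtttag
H2ax, chr9:44336033-44336058, plus strand: ggctaattttATTAAAggatcgtttg
H1f0, chr15:79030473-79030498, plus strand: aaaactttaaAATAAAactggaaagg
H2az1, chr3:137866887-137866912, plus strand: ctgcttactaATTAAAcagtgcatct
H3f3a, chr1:180800838-180800863, minus strand: tttgaaaaatAATAAAagtaccaata
H3f3b, chr11:116021989-116022014, minus strand: aggccttacaAATAAActagtaagtt
The longest H3f3a transcript in GENCODE runs past the RefSeq end of the gene. In H1f2 the hexamer ends 20 bases before the end of the transcript, and in H2ax 29 bases before it. In H3f3b it ends 87 bases before the end, outside the last 50 bases. A hexamer of either spelling lies within the last 50 bases of 73.8% of the 17600 transcripts. The share of transcripts with a hexamer anywhere was not counted. These letters show what the annotation holds and not which end was used in these cells. If H1f2 was counted over its 1560 bases, its FPKM values correspond to 328, 409 and 416 fragments in TPPU replicates 1 to 3 and to 590, 922 and 821 fragments in control replicates 1 to 3. Fragments amplified by PCR are not independent molecules, so such numbers speak to counting error only.

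**Figure D1:**
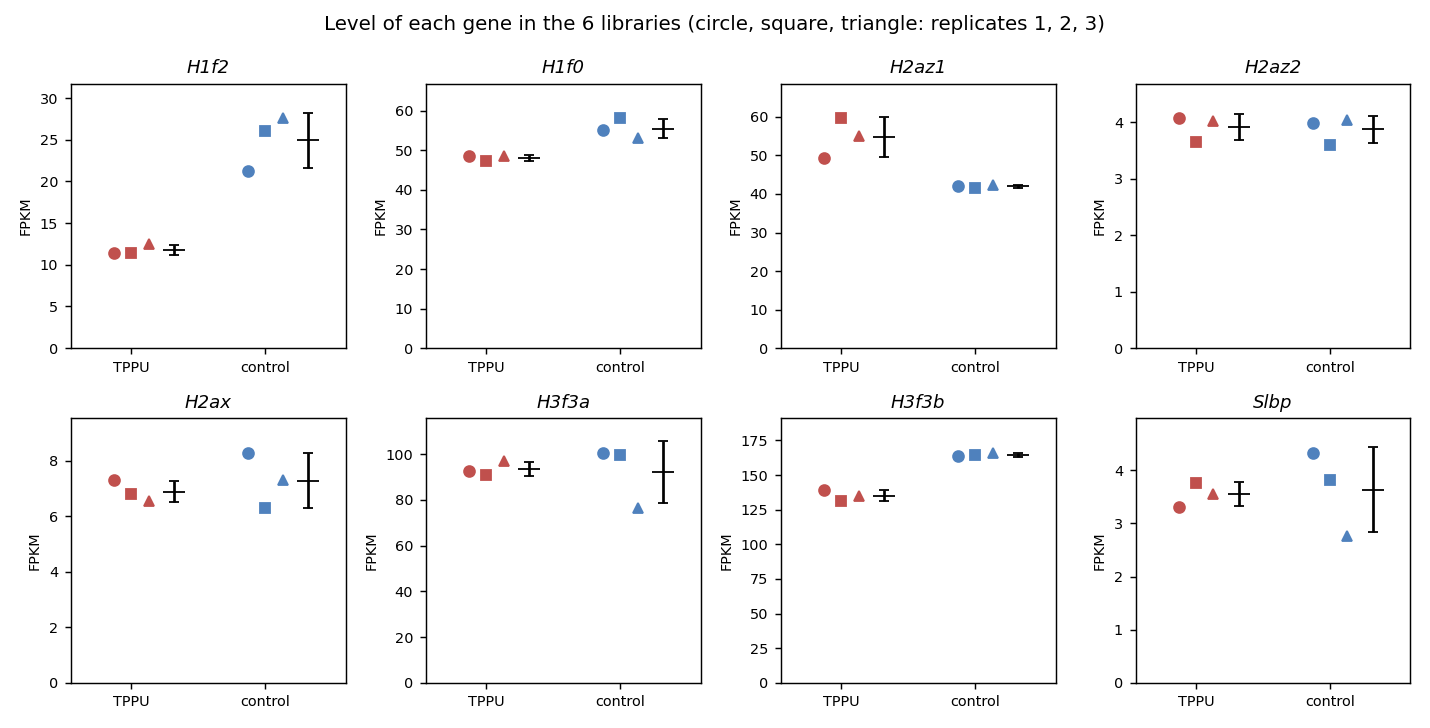
FPKM (vertical axes, from 0) of the 8 genes in the 3 TPPU libraries (red) and the 3 control libraries (blue), with replicates 1, 2 and 3 as circle, square and triangle and the mean ± SD as a black mark. H1f2, H1f0 and H3f3b were lower in every TPPU library than in any control library, H2az1 was higher, and the groups overlapped for the other genes.

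H1f2 had a higher level per length than any other replication-dependent histone gene listed. Of the 42 other genes of that class listed, 38 were under 1 FPKM in all 6 libraries and 36 were at 0 in at least 1 library. The largest single values belonged to H2bc21 at 3.16 FPKM and H2bc4 at 2.99 FPKM. Along chromosome 13, 53 such genes are annotated between positions 21715711 and 23934913 (mm10), and 37 of them were listed, H1f2 included. Within 100000 bases of H1f2, 9 others were listed, none above 2.99 FPKM. The 42 genes summed to 9.86, 8.09 and 8.76 FPKM in TPPU replicates 1 to 3 and to 9.99, 10.3 and 7.92 FPKM in control replicates 1 to 3. Those sums overlapped between the groups, while H1f2 did not.

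H2bc4 and H2bc21, both H2B genes, were the other genes of the class that passed the filter. H2bc4 measured 2.28, 1.97 and 2.49 FPKM in TPPU libraries and 2.74, 2.65 and 2.99 FPKM in control libraries, with no overlap between the groups and a log2 fold change of -0.23 (SE 0.12, limma adjusted p = 0.664). H2bc21 averaged 2.4 ± 0.79 FPKM with TPPU and 2.2 ± 0.6 FPKM in control (SD, n = 3 each), with overlapping libraries. H4c9 was under 1 FPKM in all 3 TPPU libraries, at 0.68, 0.845 and 0.454 FPKM, and at 1.94, 1.28 and 0.432 FPKM in control libraries. For RNAs without a poly(A) tail outside the histone class, 13 names were looked up, among them Rn7sk and Rmrp. None was among the gene symbols listed, so none was analysed here.

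H1f0, the other linker histone, was also lower with TPPU in every library, by a smaller margin. It encodes H1.0, a replacement linker histone that accumulates in cells that leave the cell cycle, and its mRNA is polyadenylated. It is on chr15:79028212-79030504 (mm10). Its level was 48.6, 47.2 and 48.6 FPKM in TPPU replicates 1 to 3 and 55.2, 58.2 and 53.2 FPKM in control replicates 1 to 3. The highest TPPU value was below the lowest control value. On the log2 scale the change was -0.20 (SE 0.08), and it lay between -0.23 and -0.17 when any 1 library was left out.

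Within each library, H1f2 was also lower relative to H1f0 with TPPU. The ratio of their FPKM was 0.235, 0.242 and 0.256 in TPPU replicates 1 to 3 and 0.384, 0.447 and 0.519 in control replicates 1 to 3. A ratio within a library does not depend on how libraries were scaled to each other. H1f2 made up 19.6% ± 0.67 of the summed FPKM of both genes with TPPU and 30.9% ± 3.2 in control (SD, n = 3 each). The sum itself was 59.9 ± 1.2 FPKM with TPPU and 80.4 ± 3.88 FPKM in control. RNA was captured by its poly(A) tail, so H1f2 transcripts without a tail are poorly sampled in the ratio, the share and the sum. H1f10, another polyadenylated linker histone gene, was at most 0.139 FPKM.

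H2az1 was the member with higher values after TPPU. It encodes H2A.Z, a variant of H2A placed at promoters and enhancers by chromatin remodelling complexes. It is on chr3:137864487-137866922 (mm10). Its level was 49.3, 59.7 and 55.1 FPKM in TPPU replicates 1 to 3 and 42.1, 41.5 and 42.4 FPKM in control replicates 1 to 3. The lowest TPPU library was above the highest control library, and the TPPU libraries were the more scattered, with an SD of 5.18 FPKM with TPPU and 0.45 FPKM in control. H2az1 had a log2 fold change of 0.37 (SE 0.10), between 0.31 and 0.44 with any 1 library left out.

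H2az2, which encodes the closely related protein H2A.Z.2, did not differ beyond its spread. It is on chr11:6427226-6444511 (mm10). It measured 4.07, 3.65 and 4.01 FPKM in TPPU libraries and 3.98, 3.59 and 4.04 FPKM in control libraries, so the groups overlapped almost completely. H2az2 had a log2 fold change of 0.01 (SE 0.11), and its sign turned when TPPU replicate 1, TPPU replicate 3 or control replicate 2 was left out. H2az1 exceeded H2az2 by 12.1, 16.3 and 13.7 times in TPPU libraries and by 10.6, 11.6 and 10.5 times in control libraries, and these ratios did not overlap between the groups. The summed FPKM of both genes was 58.6 ± 4.98 with TPPU and 45.9 ± 0.69 in control (SD, n = 3 each).

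H2ax, which encodes the variant that is phosphorylated around DNA double-strand breaks, gave overlapping groups. It is on chr9:44334715-44336077 (mm10) and, as shown above, has both a stem-loop and a poly(A) signal. Its level was 7.3, 6.81 and 6.57 FPKM in TPPU replicates 1 to 3 and 8.29, 6.29 and 7.3 FPKM in control replicates 1 to 3. Its log2 fold change was -0.07 (SE 0.12). H2ax and H1f2 both have the stem-loop, and whether their fold changes differ was not tested.

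The H3.3 genes H3f3a and H3f3b were the members with the highest levels per length, and their libraries were arranged differently. Both encode the same protein, the replacement form of H3 that is deposited outside replication, but from separate genes with separate promoters. H3f3b, on chr11:116021961-116026039 (mm10), measured 139, 131 and 135 FPKM in TPPU replicates 1 to 3 and 163, 164 and 166 FPKM in control replicates 1 to 3. Every TPPU library was below every control library, with an SD of 4.15 FPKM with TPPU and 1.3 FPKM in control. Its log2 fold change was -0.28 (SE 0.07), between -0.30 and -0.26 with any 1 library left out.

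H3f3a, on chr1:180802560-180813605 (mm10), measured 92.8, 90.7 and 96.8 FPKM in TPPU libraries and 101, 99.6 and 76.6 FPKM in control libraries. The low control value is that of replicate 3, which stood apart, and the groups overlapped. With all libraries the log2 fold change was 0.03 (SE 0.12), and without control replicate 3 it was -0.10 (SE 0.06). RefSeq lists 2 pseudogenes named for H3f3a, and how reads shared with such copies were assigned is not given in the sources used here.

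The H3f3b share of the summed FPKM of the H3.3 genes was lower in every TPPU library than in any control library. A difference in that share was not tested. H3f3b over H3f3a was 1.5, 1.44 and 1.4 in TPPU replicates 1 to 3 and 1.63, 1.65 and 2.17 in control replicates 1 to 3, with the outlying value in control replicate 3. The summed FPKM of both genes was 232, 222 and 232 in TPPU libraries and 264, 264 and 243 in control libraries, again with no overlap.

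**Figure D2:**
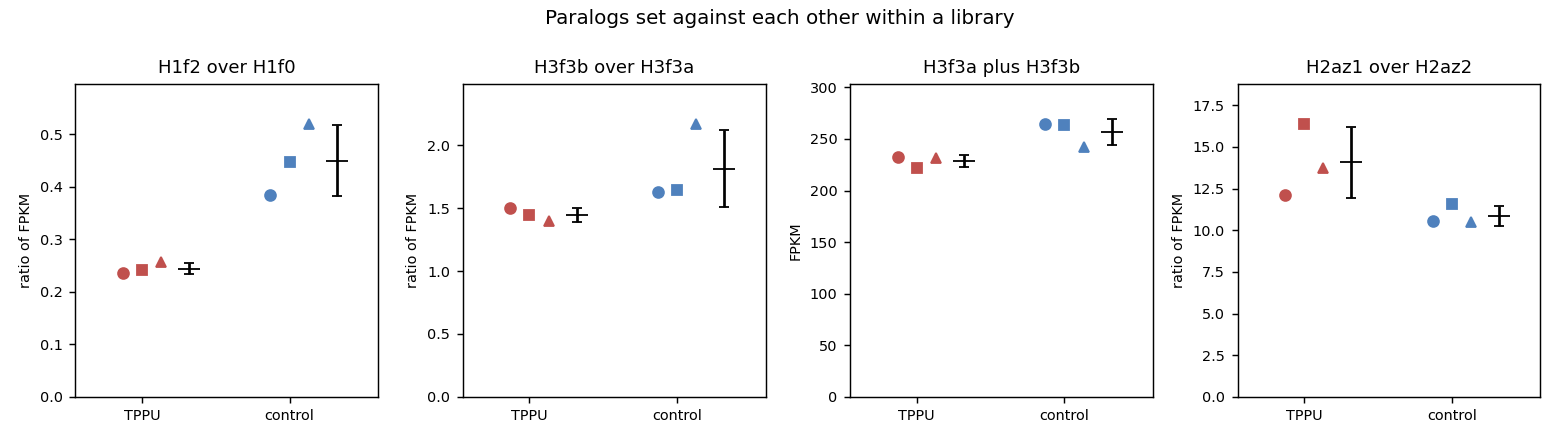
Ratios of FPKM within a library (H1f2 over H1f0, H3f3b over H3f3a, H2az1 over H2az2) and the summed FPKM of the H3.3 genes, on vertical axes from 0, in 3 TPPU libraries (red) and 3 control libraries (blue), with replicates as circle, square and triangle and mean ± SD in black. H1f2 over H1f0 was 0.235 to 0.256 with TPPU and 0.384 to 0.519 in control, and none of the 4 quantities overlapped between the groups. Each of the 4 holds H1f2, H3f3b or H2az1, whose own groups do not overlap, so nothing follows from that count. The share of other gene pairs whose ratios separate the groups was not counted.

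Across the members, 3 had all TPPU libraries below all control libraries (H1f2, H1f0 and H3f3b) and 1 had them above (H2az1). Of all genes tested, 7.88% lay wholly below and 7.48% wholly above. Since the members were chosen with these values known, nothing follows from the count. The median log2 fold change of the 8 was -0.04, against 0.02 for all genes tested. With any 1 library left out the sign held for H1f2, H1f0, H3f3b and H2az1. It turned for H2az2, H2ax, H3f3a and Slbp, whose fold changes were all within 0.07 of 0.

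**Figure D3:**
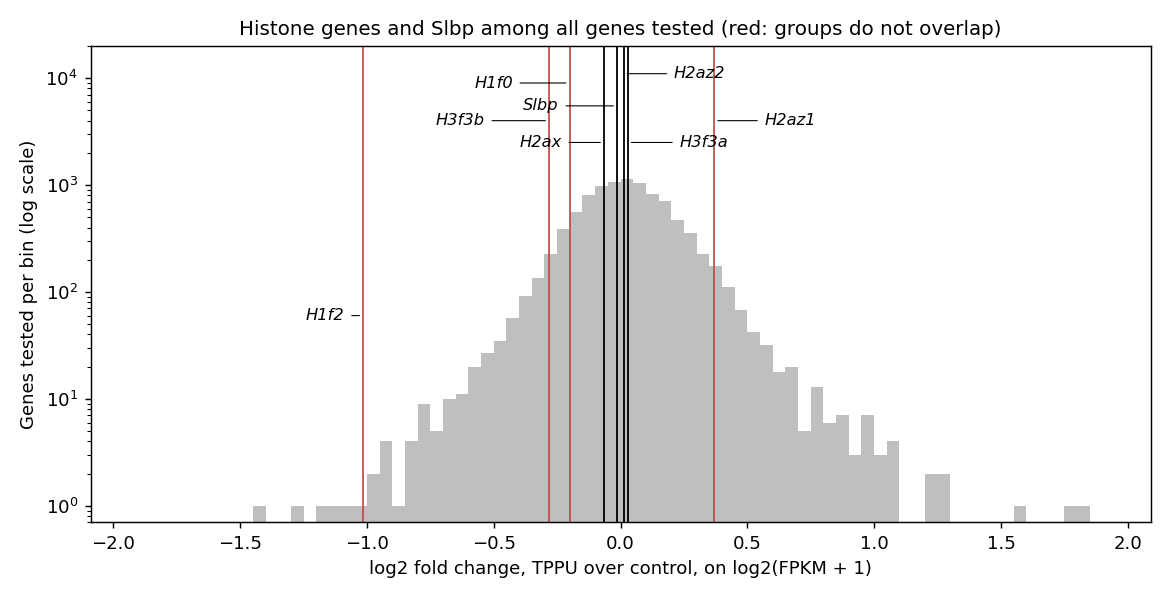
Number of tested genes (vertical log axis, bins of 0.05) by log2 fold change of TPPU over control on log2(FPKM + 1) (horizontal axis), with a line at each of the 8 genes, red where the groups do not overlap. H1f2 at -1.02 lies in the sparse lower tail, H3f3b, H1f0 and H2az1 on the flanks, and the other 4 near the centre.

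**Figure D4:**
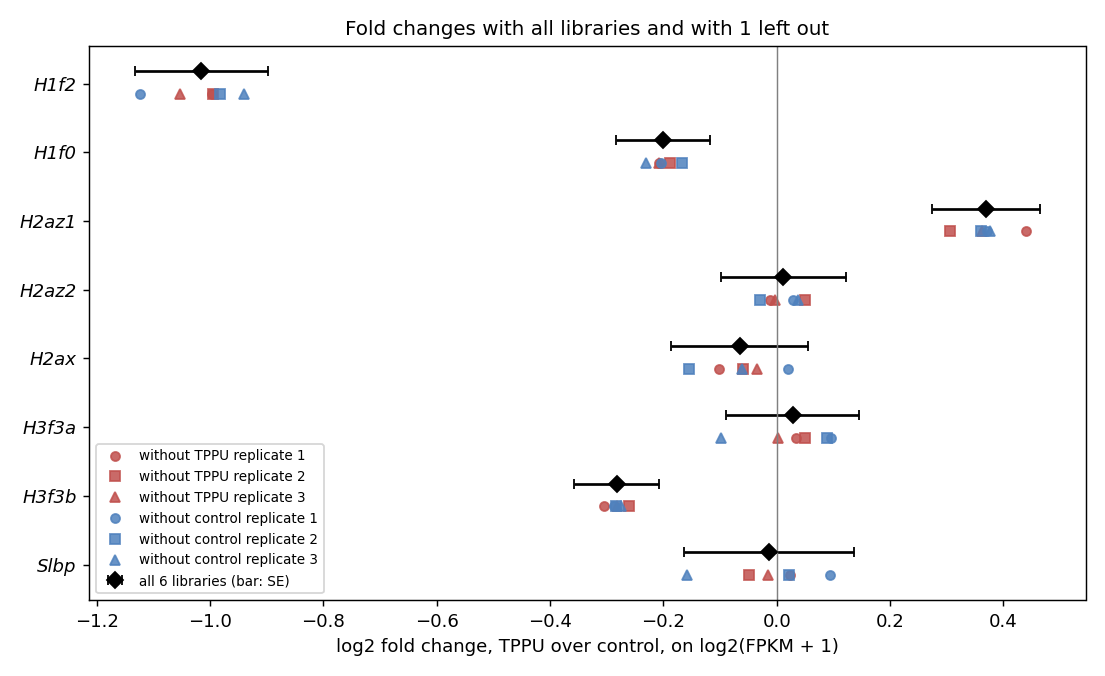
Log2 fold change of TPPU over control (horizontal axis) for each gene, with all 6 libraries (black diamond, bar for the SE) and with each library left out (red for a TPPU library, blue for a control library; circle, square and triangle for replicates 1, 2 and 3). H1f2 stays between -1.12 and -0.94, and H3f3a and Slbp are negative without control replicate 3, at -0.10 and -0.16.

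By level, the order over the 6 libraries was H3f3b, H3f3a, H1f0, H2az1, H1f2, H2ax, H2az2 and Slbp. H3f3b averaged 150 FPKM and was 232nd of the 18019 genes listed, and Slbp averaged 3.59 FPKM. Neighbours in this order were separated in all 6 libraries, except H1f0 with H2az1 and H2az2 with Slbp, whose ranges overlapped. H1f0 was above H2az1 in the 3 control libraries and below it in the 3 TPPU libraries.

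Slbp, which encodes the stem-loop binding protein, gave no separation between the groups. It is on chr5:33640055-33652574 (mm10), and its protein is made mainly around S phase. Its level was 3.32, 3.77 and 3.55 FPKM in TPPU replicates 1 to 3 and 4.33, 3.82 and 2.76 FPKM in control replicates 1 to 3. The lowest value belonged to control replicate 3. Its log2 fold change was -0.01 (SE 0.15), or -0.16 without that library.

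The wider machinery that makes and removes histone mRNA did not pass the test in either direction. Of 23 genes in that list, Slbp included, 22 were tested, 0 were called, 11 had positive and 11 negative changes, and the median log2 fold change was -0.002. Cpsf3, the endonuclease that cuts histone pre-mRNA after the stem-loop, averaged 30.1 ± 1.56 FPKM with TPPU and 26.2 ± 0.43 FPKM in control (limma adjusted p = 0.627). Npat, a coactivator of histone gene transcription in S phase, averaged 7.44 ± 0.78 FPKM with TPPU and 8.2 ± 0.9 FPKM in control. Xrn1, a 5′ to 3′ exonuclease, averaged 2.66 ± 0.16 FPKM with TPPU and 3.09 ± 0.5 in control. Lsm1, a subunit of the ring that marks mRNAs for decay, averaged 7.38 ± 0.62 FPKM with TPPU and 6.73 ± 0.54 FPKM in control (SD, n = 3 each for all 4 genes).

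No histone chaperone or subunit of a complex that places variants passed the test. Of 37 genes, 34 were tested, 0 were called, and 22 changes were positive and 12 negative. The median log2 fold change was 0.11, against 0.02 over all genes tested, and it was 0.03 without control replicate 3. Ruvbl1 and Ruvbl2, the paired ATPases of the remodelling complexes that handle H2A.Z, had higher means with TPPU. The 4 genes given here had the smallest p of the list, and any link to H2az1 was not tested. Ruvbl2 averaged 29.5 ± 0.91 FPKM with TPPU and 23.8 ± 2.57 FPKM in control (log2 fold change 0.30, SE 0.10, limma adjusted p = 0.564). Ruvbl1 averaged 26.2 ± 2.23 FPKM with TPPU and 21.6 ± 1.22 FPKM in control. Yeats4, a subunit of the SRCAP and TIP60 complexes, pointed the other way, at 13.4 ± 0.98 FPKM with TPPU and 16.4 ± 0.87 FPKM in control. Asf1b, a chaperone of newly made H3 and H4, averaged 9.85 ± 0.98 FPKM with TPPU and 7.58 ± 0.75 FPKM in control (SD, n = 3 each for all 4 genes).

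S-phase genes, which mark the phase in which most histones are made, had a median of 0.15 over 21 tested genes, 16 positive and 5 negative, with 0 called. Without control replicate 3 the median was 0.06. Tk1, thymidine kinase, averaged 4.68 ± 0.24 FPKM with TPPU and 3.37 ± 0.23 FPKM in control (limma adjusted p = 0.492). Gins2, a subunit of the replicative helicase, averaged 2.49 ± 0.13 FPKM with TPPU and 1.86 ± 0.35 FPKM in control. Cdt1, a loader of that helicase, was at 22.9 ± 1.65 FPKM with TPPU and 27.1 ± 1.34 FPKM in control, and the helicase subunit gene Mcm4 at 21.1 ± 0.37 FPKM with TPPU and 24.5 ± 1.78 FPKM in control (SD, n = 3 each for all 4 genes). Over all genes tested, 5291 of 9728 changes were positive. Any link between these genes and the level of H1f2 was not tested.

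Genes of the DNA-damage response in which H2AX takes part gave a median of 0.05 over 15 tested genes of 18, with 10 positive, 5 negative and 0 called. The median was -0.006 without control replicate 3. Chek1, a checkpoint kinase, averaged 2.73 ± 0.29 FPKM with TPPU and 1.83 ± 0.39 FPKM in control (log2 fold change 0.40, SE 0.15, limma adjusted p = 0.564). Mdc1, the protein that binds phosphorylated H2AX, averaged 5.18 ± 0.46 FPKM with TPPU and 6.08 ± 0.69 FPKM in control. Mre11a and Rad50, partners in the complex that senses DNA breaks, were at 16.2 ± 1.32 and 11.5 ± 0.72 FPKM with TPPU and at 14 ± 1.63 and 10.2 ± 0.26 FPKM in control (SD, n = 3 each).

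The remaining variant histones with levels above the filter were H2aj, Macroh2a1 and Cenpa, with 0 called. H2aj, an H2A variant with a polyadenylated mRNA, measured 26.3, 25.3 and 28.3 FPKM in TPPU libraries and 24.3, 24 and 23.6 FPKM in control libraries. Its groups did not overlap, and its log2 fold change was 0.15 (SE 0.09, limma adjusted p = 0.695). Macroh2a1, which encodes the large H2A variant macroH2A1, averaged 12.5 ± 0.71 FPKM with TPPU and 13.6 ± 1.7 FPKM in control, and Cenpa, the H3 variant of centromeres, 9.57 ± 0.99 FPKM with TPPU and 9.94 ± 1.43 FPKM in control (SD, n = 3 each).

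**Figure D5:**
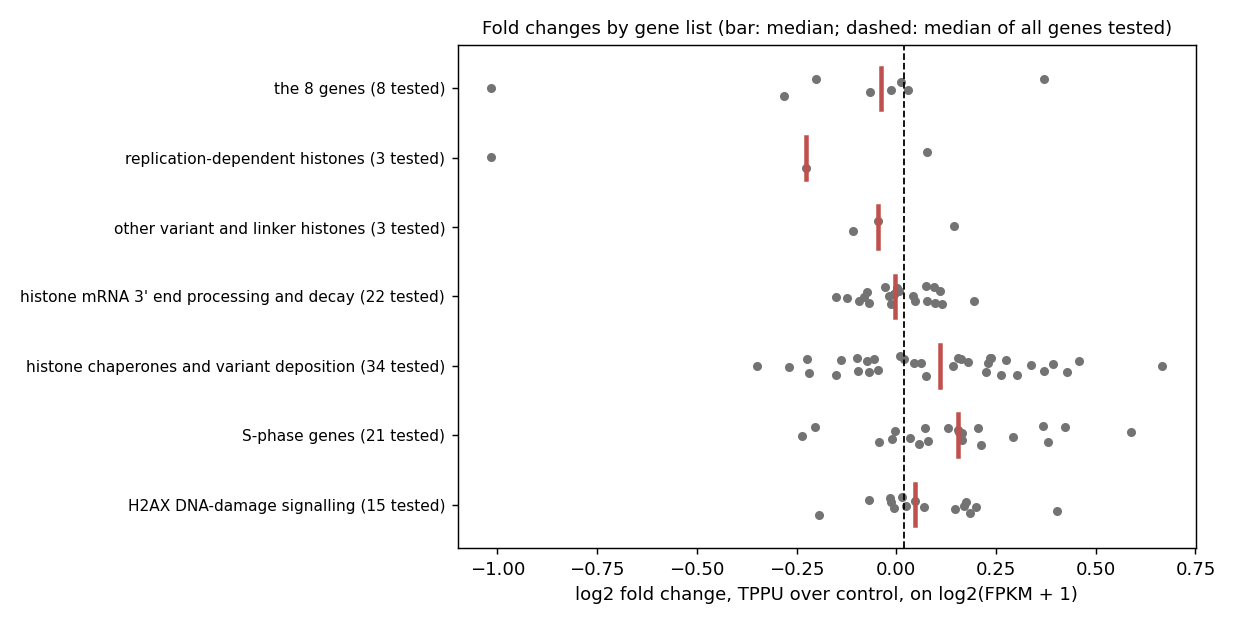
Log2 fold change of TPPU over control (horizontal axis) for every tested gene of each list (grey points), with the list median as a red bar and the median of all 9728 genes as a dashed line. H1f2, at -1.02, lies apart from every other gene shown, and the medians of the chaperone and S-phase lists are 0.11 and 0.15.

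The genes whose log2(FPKM + 1) followed H1f2 most closely over the 6 libraries were Dusp1 (Pearson r = 0.993), Gm16188 (0.992), Eps8 (0.986), Nrde2 (0.985) and Actg1 (0.983). These correlations describe 6 libraries that fall into 2 groups, so any gene that separates the groups scores high. Dusp1 averaged 9.45 ± 0.73 FPKM with TPPU and 19 ± 3.04 FPKM in control. Gm16188 averaged 0.07 ± 0.13 FPKM with TPPU and 1.32 ± 0.22 FPKM in control. Nrde2 averaged 2.48 ± 0.03 FPKM with TPPU and 3.66 ± 0.36 FPKM in control (SD, n = 3 each). Actg1, which encodes cytoplasmic gamma actin, measured 698, 651 and 698 FPKM in TPPU replicates 1 to 3 and 926, 942 and 1052 FPKM in control replicates 1 to 3. Like H1f2, it was highest in control replicate 3 and lowest in TPPU replicate 2. Eps8, which encodes an actin-capping protein, averaged 4.14 ± 0.08 FPKM with TPPU and 5.51 ± 0.46 FPKM in control (SD, n = 3 each). Among the members, H3f3b came 22nd of all genes (r = 0.967) and H1f0 143rd (r = 0.905), while H2az1 ran the opposite way (r = -0.894).

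Slbp was followed most closely by Fam133b (r = 0.994), Gm48079 (0.994) and Rmnd5a (0.990), also over 6 libraries. All 3 were lowest in control replicate 3 and highest in control replicate 1, as Slbp was. Rmnd5a, which encodes a ubiquitin ligase subunit, measured 8.79, 9.96 and 9.21 FPKM in TPPU replicates 1 to 3 and 10.9, 10.2 and 7.21 FPKM in control replicates 1 to 3.

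The promoters of H1f2 and H3f3b, the members with the lowest fold changes, and of H2az1, the member with the highest, are shown. Each is the 250 bases before an annotated start site (RefSeq, GRCm38.p6, which is mm10). The H3f3b window lies inside the span given above for that gene, so its start site is an internal one. Capitals mark 4 motifs on either strand. They are the CCAAT box, the TATA box, a TATA-like run that can overlap it, and the H1 box, a sequence known from H1 gene promoters.
H1f2, chr13:23738557-23738806, plus strand: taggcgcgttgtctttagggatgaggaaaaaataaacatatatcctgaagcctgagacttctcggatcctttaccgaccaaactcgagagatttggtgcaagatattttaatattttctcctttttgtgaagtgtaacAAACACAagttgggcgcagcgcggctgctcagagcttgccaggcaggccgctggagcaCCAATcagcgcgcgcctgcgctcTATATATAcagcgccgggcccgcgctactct
H3f3b, chr11:116024505-116024754, minus strand: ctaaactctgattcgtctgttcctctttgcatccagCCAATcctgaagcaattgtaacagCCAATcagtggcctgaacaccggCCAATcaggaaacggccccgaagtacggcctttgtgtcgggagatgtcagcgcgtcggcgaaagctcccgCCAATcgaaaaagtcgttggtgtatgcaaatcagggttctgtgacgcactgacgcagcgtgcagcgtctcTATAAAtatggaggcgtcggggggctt
H2az1, chr3:137864237-137864486, plus strand: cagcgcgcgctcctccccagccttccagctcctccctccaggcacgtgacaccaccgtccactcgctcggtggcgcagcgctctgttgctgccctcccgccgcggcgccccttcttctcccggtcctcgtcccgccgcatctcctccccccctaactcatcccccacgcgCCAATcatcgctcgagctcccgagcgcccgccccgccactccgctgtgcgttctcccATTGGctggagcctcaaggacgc
H1f2 has the H1 box, AAACACA, at -112, CCAAT at -54, and 2 overlapping copies of the TATA-like TATATA at -31 and -29 (first base, counted from the start site). H3f3b has CCAAT at 4 places and the TATA box, TATAAA, at -27, while H2az1 has CCAAT at -80 and its reverse complement ATTGG at -23. Over 32851 RefSeq promoter windows of the same length, CCAAT occurs on either strand in 33.8%, TATAAA in 12.4%, TATATA in 5.25% and AAACACA in 6.25%. Of the 7 members with a promoter entry, all but H1f0 hold CCAAT on either strand. H3f3a also holds the H1 box, as its reverse complement at -181. H1f0 has none of the searched motifs in its window, which at 74.4% GC is richer than the median of 52.4%. So are the windows of H3f3a (77.2%), H2az1 (71.2%), Slbp (68.4%), H2az2 (57.2%) and H3f3b (54%), while that of H1f2 (50.4%) is not. These matches are descriptions of sequence and were not tied to any binding.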

How the data were processed

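Oligo(dT) beads were used to enrich mRNA, and second strands were marked with dUTP, per the labels' protocols. The authors deposited 1 table of FPKM, named as such by its title, and mm10 is the build per the submitters' processing notes. Aligner, counter and annotation: not given in the sources used here. The labels give 1 batch and do not tell whether replicates were separate cultures, so p-values measure the spread between these libraries, which may be technical.

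Values were transformed as log2(FPKM + 1) where 3 or more libraries reached 1 FPKM, which kept 9728 of 18019 genes. The groups were compared by limma 3.58.1 under R 4.3.3 (design: group alone; prior variance trended on the mean; two-sided), with Benjamini-Hochberg adjustment over all tested genes. The method was tested on simulated data in which genes varied independently. No effect shared by the genes of a library was simulated, so that test does not cover an outlying library. Depth came from genes with a single annotated transcript, as the depth at which most low values were whole fragments within 0.1. That share was 93.1% to 93.5%, against 20% by chance for a depth fixed in advance. At the depths chosen, 1 fragment per kb was worth 0.0436 to 0.0561 FPKM. No count model was applied.

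The members and gene lists were chosen with earlier results of these data known. The genes named were the 8 members, the 5 genes most correlated with H1f2 and the 3 with Slbp, up to 4 genes per list with the smallest p, and the label checks Pafah1b1 and Ephx2. H2bc4, H2bc21, H2aj, H4c9, H1f10 and Lum were also named, the last 3 after their values were seen. Positions and sequences came from RefSeq GRCm38.p6 and GENCODE M21. All 8 members matched an annotated gene and 7 a promoter entry (not H2ax). Alternatives covered pseudocount, filter, scaling, model settings, GC and length trends, a block on replicate numbers, and leaving out single libraries. Python 3.11.15, pandas 2.3.3 and matplotlib 3.10.9 were used.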

Additional observations from a re-analysis of the deposited data

How the results depend on the processing

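Over 18 alternatives H1f2 and H1f0 stayed negative and H2az1 positive, with H1f2 between -1.12 and -0.87 (log2) and its limma adjusted p between 0.00721 and 0.531. Sample quality weights gave 89 genes higher and 80 lower, and H1f2 passed at -0.87. With the GC trend removed 1 gene was higher and 8 lower, and H1f2 passed at -0.96. With each library left out in turn, 0 to 5 genes were higher and 0 to 1 lower, and the log2 fold changes ran from -1.12 to -0.94 for H1f2, -0.030 to 0.050 for H2az2, -0.155 to 0.020 for H2ax, -0.098 to 0.095 for H3f3a and -0.157 to 0.094 for Slbp. H2az2 turned negative with quantile normalization (-0.022), quality weights (-0.025), the GC trend removed (-0.020) and the length trend removed (-0.022). H3f3a turned negative with quality weights (-0.096) and with the GC trend removed (-0.040). The cause was not tested. The members under 5 FPKM, H2az2 and Slbp, drop out when a mean of 5 FPKM is required, and have no value there.

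Deviations from the group means correlated at -0.30, 0.15 and -0.40 between TPPU and control libraries with replicate numbers 1, 2 and 3. Between unlike numbers they ran from -0.45 (TPPU replicate 1 with control replicate 2) to 0.51 (TPPU replicate 1 with control replicate 3). Deviations within a group of 3 sum to 0, so these values cannot show whether libraries were paired. With the replicate block 0 genes passed in either direction, and H1f2 was at -1.02 (limma adjusted p = 0.307). As to depth, H2ax rests on about 186 to 216 fragments per TPPU library and 193 to 205 per control library.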
